A study of Mus musculus with 72 samples.

Results

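Myc, Mycn and Mycl, their partner Max, the repressors Mxd1, Mxd3, Mxd4, Mxi1 and Mnt, and the scaffold protein Mga form the Myc, Max and Mxd network, and their mRNAs were followed in mouse embryonic stem cells. The 10 genes were taken by symbol from the 51826 genes in the count files, and all 10 were found. The cells were E14TG2a, an embryonic stem cell line grown in medium with serum, leukemia inhibitory factor and the inhibitors CHIR99021 and PD0325901 ("2i + LIF"). They were labeled with 4-thiouridine (4sU), a uridine analog that is built into RNA made during labeling and read as C in place of T after alkylation. Cells were then split by detergents into a cytosol, a membrane and a nucleus fraction, and a part of each culture was kept as whole-cell ("total") extract.

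The 6 replicates came in pairs with their own labeling times. Labeling lasted 15, 20 or 30 min for replicates 1 and 2. It lasted 20, 40, 60 or 120 min for replicates 3 and 4, whereas replicates 5 and 6 had only the last pair of times. Every culture carried 4sU, and cultures without it were not analysed here. Labels put cultures up to 40 min at 500 µM 4sU and longer ones at 100 µM. The methods name both doses at 60 min, so that the dose of replicates 3 and 4 is uncertain at their later times. Dose was not itself a factor in any test. The choice of libraries to set aside, and comparisons that use later libraries of replicates 3 and 4, do depend on their dose. Deposited rates of T-to-C conversion at 60 min were 5.83 to 8.29% in replicates 3 and 4 and 2.38 to 3.99% in replicates 5 and 6. The paper describes rates that rose with time at 500 µM and stayed constant at 100 µM. Its methods exclude samples labeled at 500 µM for more than 60 min. The libraries made at the longest time from the second pair were set aside for labeling results. Here these were 8 libraries, and 64 of 72 libraries were left, or 16 per fraction. Pair, labeling time and labeled dose cannot be told apart in most comparisons.

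Myc proteins bind E-box DNA as heterodimers with Max and recruit coactivators to promoters. Mxd proteins, Mxi1 and Mnt compete for Max and recruit Sin3 corepressor complexes, and Mga joins Max to a variant Polycomb repressive complex called PRC1.6. Myc protein and Myc mRNA are known for fast turnover, and AU-rich elements in its 3′ untranslated region (UTR) are among the sequences linked to that turnover. In embryonic stem cells, Mycn and Myc support proliferation and ribosome synthesis.

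AU-rich elements are built from copies of the pentamer ATTTA, so that the first copy in each 3′ UTR with its neighbours is shown here for 3 genes with the largest shares of new RNA, Myc, Mycn and Mxd1, and for Mxi1 and Max, with smaller cytosolic shares. Sequences are from Gencode M21 transcripts on GRCm38, on the sense strand, with the pentamer in capitals.

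Myc (chr15:61990134-61990163, plus strand): ttaacagatttgtATTTAattgttttttta

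Mycn (chr12:12936149-12936178, minus strand): tcaaaatgtatatATTTAgtgctgcacctt

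Mxd1 (chr6:86649908-86649937, minus strand): ttgtggtatttttATTTAaggtaaaccaga

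Mxi1 (chr19:53371860-53371889, plus strand): tcagaagacctgtATTTAagcaaatactta

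Max (chr12:76937764-76937793, minus strand): atgatgttttgatATTTAtttcctgctact

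The annotated 3′ UTR of Myc held 2 pentamers in 466 bases, or 4.29 per kb, against a median of 1.33 per kb over 10663 genes. As many or more were found in 18.5% of the 1054 UTRs of like length, where the shorter was at least 0.8 times the longer. Mycn held 1 in 913 bases, Mxd1 5 in 3829, Mxi1 9 in 4074, Mga 5 in 4616, Mycl 2 in 1970, Max 1 in 1299 and Mnt 1 in 2405. Among UTRs of like length, 72.7% held as many or more for Mycn, 65.7% for Mxd1, 34.9% for Mxi1 and 81.6% for Max. Mxd3 and Mxd4 held none in 615 and 3105 bases. Of all 10663 UTRs, 70.7% held a pentamer and 8.17% held the longer nonamer TTATTTATT, which contains it and which was in none of the 10 genes. The longest UTR with the basic tag was searched on the sense strand, and a match is a description of these letters only.

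Between 13185351 and 52975732 reads per library fell on genes, with a median of 21494524. Summed levels of 8 pluripotency genes (in TPM, which scales reads per exon length to a common total) were 5500.1 to 16863 in every library used, and those of endoderm, mesoderm and fibroblast genes were at most 3.60, 3.94 and 12.9. Neural markers summed to 36.9 to 137, most of it Tubb3. Nuclear RNAs such as Malat1 summed to a median of 504 in nuclear and 74.2 in cytosolic libraries. The share of new RNA rose with time in most genes in 47 of 48 steps between times of 1 replicate. The exception was whole-cell replicate 6, where the library labelled 60 min had a median share of 37.5% and the library labelled 120 min 17.5%. All 10 network genes fell in that step, so whole-cell results are given with and without replicate 6. The labels were kept, and an exchange of these 2 labels was not tested.

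All 10 mRNAs were detected in all 4 fractions. Per length, Mycn, Max and Mga were the most abundant in whole cells, at 52.8 ± 22.3, 49.4 ± 10.8 and 48.9 ± 19.5 TPM (mean ± SD, n = 16). Mnt followed at 23.5 ± 8.08 and Myc at 13.7 ± 7.97 TPM. Mxd3 (9.02 ± 2.04), Mxi1 (8.44 ± 2.04) and Mycl (5.30 ± 1.39 TPM) were lower, and Mxd1 (1.89 ± 0.56) and Mxd4 (0.72 ± 0.21 TPM) were lowest. Neighbours in this order overlapped within 1 SD, except Mycl against Mxd1 and Mxd1 against Mxd4. Without replicate 6 the order was the same, with Mycn at 55.2 ± 23.0 TPM (n = 14). Among the Myc genes, Mycn was the most abundant per length in each fraction, with 74.5 TPM in the nucleus against 18.9 for Myc and 6.57 for Mycl, and 50.5 TPM in the cytosol against 10.9 and 6.34.

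**Figure D1:**
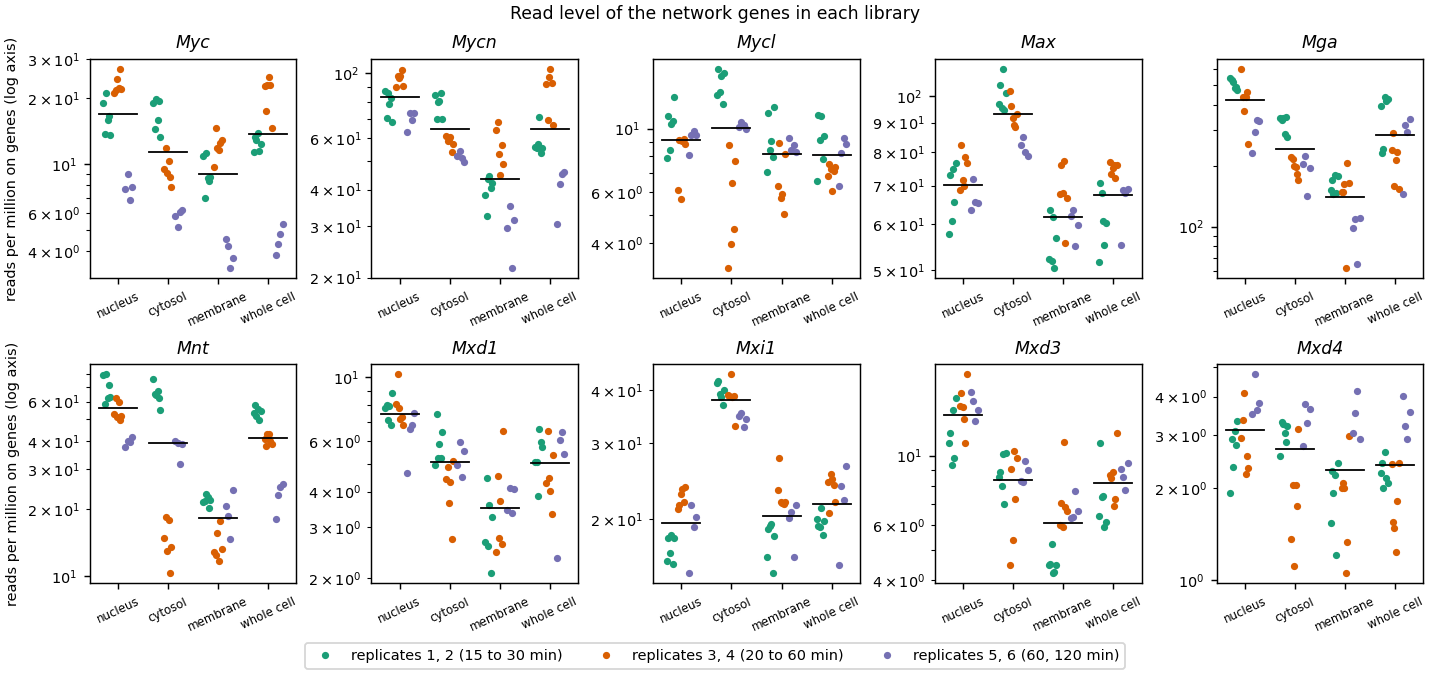
Levels of the 10 network genes in CPM, reads scaled to a common library total (log axis), in nucleus, cytosol, membrane and whole-cell libraries, with 1 point per library (16 per fraction) colored by replicate pair and a bar at the mean. Max and Mxi1 were highest in the cytosol, and Myc was lowest in replicates 5 and 6 in each fraction.

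The first comparison asked how each mRNA was split between nucleus and cytosol at steady state. Max and Mxi1 were lower in the nucleus and Mga was higher. Max, the obligate partner of the network, had 57.6 to 82.4 CPM in the nucleus (median 70.7) and 78.7 to 111 CPM in the cytosol (median 94.0). The ranges overlapped only between 78.7 and 82.4 CPM, and Max was lower in the nucleus in 16 of 16 cultures. The log2 difference was -0.72 (SE 0.06, adjusted p = 1.5e-15, edgeR quasi-likelihood test).

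Mxi1, a repressor that binds Max, had 14.9 to 23.7 CPM in the nucleus (median 19.7) and 32.7 to 43.4 CPM in the cytosol (median 38.6). The groups did not overlap, and the log2 difference was -1.27 (SE 0.07, adjusted p = 2.4e-21, edgeR). Mga had 232 to 602 CPM in the nucleus (median 450.0) and 142 to 350 CPM in the cytosol (median 218). These ranges overlapped, but Mga was higher in the nucleus in 16 of 16 cultures, with a log2 difference of 0.51 (SE 0.14, adjusted p = 0.0013, edgeR). Thus 3 of 10 genes passed the test and a log2 difference over 0.5, against 65.6% of all 15576 genes.

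The other 7 genes were not called. Their log2 differences were 0.39 for Mxd3, 0.28 for Mnt, 0.27 for Myc, 0.26 for Mxd1, 0.06 for Mycn, -0.08 for Mxd4 and -0.40 for Mycl. In CPM, Mxd3 was higher in the nucleus in 16 of 16 cultures, Mxd1 in 15, Myc in 14 and Mnt and Mycn in 13 each. Relative to the median gene of each culture, Mxd3 was higher in 16 and Mxd1 in 15, but Myc, Mnt and Mycn in 11 each.

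Scaling mattered for these values. The median gene sat at -0.02 between nucleus and cytosol with TMM scaling, at 0.12 with RLE size factors, at 0.29 with library size alone and at 0.27 to 0.29 without replicate 1, 2 or 5, and the share of called genes that were higher in the nucleus went from 52.2% to 67.6% with library size alone and to 74.9% with no filter. Relative to the median gene, over 14 fits (the one above, DESeq2, and edgeR with 2 other scalings, no filter, 2 blocks, the set-aside libraries or 1 of 6 replicates left out), Mxi1 lay between -1.42 and -1.19, Max between -0.87 and -0.64 and Mga between 0.36 and 0.57. Mxi1 was called in 14 of 14, Mga in 13 and Max in 8. Max was lost without replicate 1 (-0.41), 2 (-0.43) or 5 (-0.46), with library size alone (-0.41), with no filter (-0.42) and with the set-aside libraries (-0.43), and Mga was lost without replicate 3 (0.48). Mxd3 was called in 8 of 14, and Myc, Mnt and Mxd1 in 6 each, all as higher in the nucleus. CPM describes the composition of each fraction and not molecules per cell. In such bulk libraries, fewer cells with an mRNA and less of it per cell cannot be told apart.

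Membrane and cytosol were compared in the same fit and with the same cytosol libraries. Mnt, a widely expressed Max-binding repressor, had 11.7 to 24.2 CPM at the membrane (median 19.4) and 10.3 to 75.4 CPM in the cytosol (median 39.1). The log2 difference was -0.65 (SE 0.20, adjusted p = 0.0040, edgeR), and the ranges overlapped. Relative to the median gene it was -0.86 in replicates 1 and 2 and -0.51 in replicates 5 and 6, but 0.13 in replicates 3 and 4, where Mnt lay above the median gene in 3 of 6 cultures. Mxi1 had 15.0 to 27.7 CPM at the membrane, below every cytosol library, with a log2 difference of -0.59 (SE 0.07, adjusted p = 3.1e-10, edgeR), and it lay at -0.45, -0.55 and -0.36 relative to the median gene in the 3 pairs. These 2 of 10 genes were called, against 36.8% of all genes, and the call for Mxi1 was lost without replicate 3 (-0.50). The other 8 differences ran from -0.42 for Mga to 0.11 for Mxd4, with Max at -0.28, Mycn at -0.24 and Myc at 0.01. The median gene was at -0.16, and with library size alone it was at -0.48, the share of called genes that were higher at the membrane went from 65.8% to 31.1%, and Max, Mga, Mxd1 and Mycn were also called as lower.

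Mnt and Myc levels differed between replicate pairs. Cytosolic Mnt had 54.8 to 75.4 CPM in replicates 1 and 2, 10.3 to 18.4 CPM in replicates 3 and 4, and 31.7 to 40.1 CPM in replicates 5 and 6, with no overlap. At the shared time of 20 min it had 64.2 and 66.7 CPM in replicates 1 and 2 against 14.8 and 18.4 CPM in replicates 3 and 4. The nuclear minus cytosolic difference of Mnt, relative to the median gene, was therefore -0.03 in the first pair, 1.6 in the second and 0.04 in the third. For Myc the same values were -0.14, 0.95 and 0.39.

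Myc, the founding member of the family, was lowest in replicates 5 and 6. Its whole-cell level was 11.4 to 13.9 CPM in replicates 1 and 2, 14.5 to 24.9 CPM in replicates 3 and 4, and 3.84 to 5.35 CPM in replicates 5 and 6. In the nucleus the 3 ranges were 13.6 to 21.1, 21 to 27 and 6.87 to 9.04 CPM. The third pair lay below the others in all 4 fractions. At 60 min, where pairs can be set side by side, whole-cell Myc was 22.8 and 14.5 CPM in replicates 3 and 4 and 3.84 and 4.32 CPM in replicates 5 and 6. Mycn was lower too, at 93.0 and 66.7 against 30.6 and 41.9 CPM, while the pairs may also differ in dose. The last value of each gene is from the library of replicate 6 labelled 60 min, and without replicate 6 the third pair is 1 library, at 3.84 CPM for Myc and 30.6 CPM for Mycn. The library of replicate 6 labelled 120 min held 5.35 and 46.1 CPM.

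Whole-cell levels over labeling time were compared within a pair, which asks whether the mRNAs differed between longer and shorter labeling. Both sides of each comparison carried 4sU, so an effect of 4sU itself was not tested. By the labels, the dose in replicates 3 and 4 also changed between the times compared, so time and labeled dose cannot be told apart there. From 20 to 120 min in replicates 3 and 4, which brings in set-aside libraries, the log2 differences of the network genes ran from -0.34 for Mycn to 0.25 for Mycl, with Myc at -0.29 and Max at -0.23. None of the 10 was called by edgeR, against 0.113% of genes, and none had an unadjusted p under 0.05 by edgeR or DESeq2. The median of the 10 was -0.24 against -0.01 for all genes, and 2 of 10 lay above the median gene. From 60 to 120 min in replicates 5 and 6, the differences ran from -0.36 for Mxd4 to 0.37 for Mxd1. Their median was 0.15, and 7 of 10 lay above the median gene. Again 0 of 10 were called or had an unadjusted p under 0.05 by either tool, and 0% of 16858 genes were called, with 123 at an unadjusted p under 0.05 by edgeR and 0 called by DESeq2. Without replicate 6, 0 genes were called as well.

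The share of new RNA was the number of T2C conversions divided by the number of T positions and by the conversion rate of the library. Sequencing errors were not subtracted, and shares can exceed 100%. Conversion rates were 2.07 to 4.84% in replicates 1 and 2, 2.69 to 8.29% in replicates 3 and 4 and 2.38 to 3.99% in replicates 5 and 6. All 10 genes had at least 623 T positions in exons in every library used and passed the minimum of 400 in the 48 fraction libraries, with 11646 genes in all.

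Myc and Mycn became new fastest. Cytosolic Myc was 12.7% and 8.9% new at 15 min, 16.7% and 28.9% at 30 min, 37.0% and 44.7% at 40 min, and 93.9% and 110.3% at 120 min. Cytosolic Mycn was 11.5% and 13.0% new at 15 min, 20.8% and 25.3% at 30 min, 31.7% and 32.1% at 40 min, and 104% and 98.8% at 120 min. In the cytosol of replicates 5 and 6, both mRNAs were thus almost wholly new after 120 min. Max was 1.8% and 1.5% new in the cytosol at 15 min, 4.9% and 4.7% at 30 min, 5.4% and 5.7% at 40 min, and 55.0% and 55.1% at 120 min.

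These courses join different pairs, since values up to 30 min are from replicates 1 and 2, those at 40 min from replicates 3 and 4 and those at 120 min from replicates 5 and 6. At 60 min, which the last 2 pairs share, cytosolic Max was 9.6% and 10.1% new in replicates 3 and 4 against 28.7% and 26.5% in replicates 5 and 6. Cytosolic Mycn was 52.5% and 45.1% against 70.4% and 67.0%, and Myc 62.1% and 54.2% against 98.2% and 68.6%. The third pair was higher for all 3 genes. In the set-aside libraries of replicates 3 and 4 at 120 min, cytosolic Max was 38.4% and 35.4% new. Cytosolic Myc was 74.0% and 90.3% new there, and cytosolic Mycn 83.3% and 80.3%.

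Among the repressors, cytosolic Mxd1 was 116% and 93.4% new at 120 min, Mnt 81.3% and 71.7%, Mxi1 62.6% and 48.6%, Mxd3 49.8% and 52.5%, and Mxd4 26.8% and 31.4%. Mga reached 77.7% and 76.6% and Mycl 60.2% and 50.5%. The mRNAs of the Mxd proteins therefore spanned the range of the network, from Mxd1 at its upper to Mxd4 at its lower end.

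By the mean log2 share over 16 libraries, Myc stood at percentile 98.5 of 11646 genes in cytosol and in nucleus, and Mycn at 98.0 and 97.9. Mxd1 stood at 90.4 in the cytosol and 96.7 in the nucleus, Mnt at 84.1 and 87.8, Mycl at 82.9 and 71.8, Mga at 80.7 and 82.3, and Mxi1 at 76.4 and 84.1. Max stood at 63.3 in the cytosol and 88.1 in the nucleus, Mxd3 at 51.4 and 64.5, and Mxd4 at 9.91 and 45.3. Neighbours were often close. Cytosolic Myc was above Mycn in 11 of 16 libraries, Mycn above Mxd1 in 14, Mxd1 above Mnt in 11, Mnt above Mycl in 9 and Mycl above Mga in 8.

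**Figure D2:**
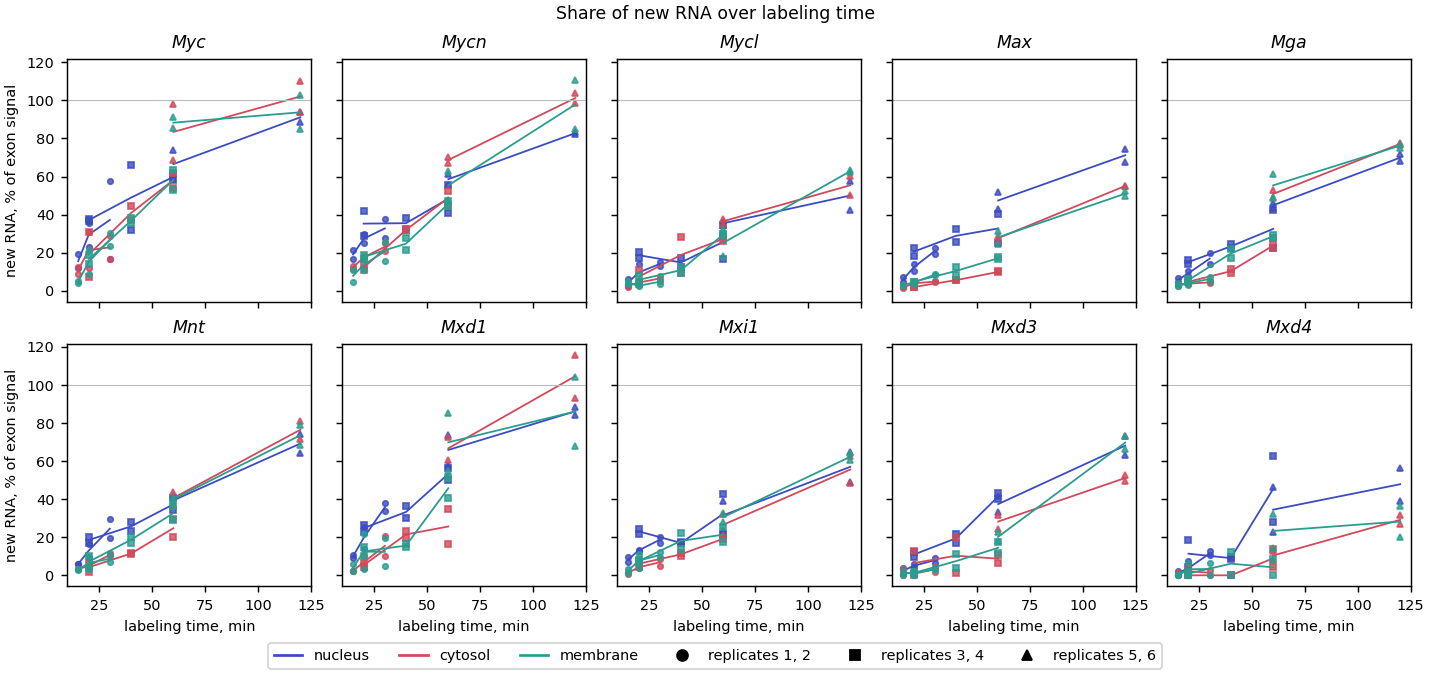
Share of new RNA in exons (percent) against labeling time (min) for the 10 genes. Points are libraries, with a shape for each replicate pair, and lines join means of a pair in nucleus, cytosol and membrane. Cytosolic Myc and Mycn approach 100% at 120 min, while cytosolic Mxd4 was 26.8% and 31.4% new.

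The comparison of new shares between nucleus and cytosol asks how far new mRNA in the cytosol lagged behind that in the nucleus. At 15 min nuclear Max was 7.1% and 4.5% new, and at 30 min 19.4% and 22.2%. Nuclear Max was above cytosolic Max in 16 of 16 cultures. The log2 difference was 1.56 (SE 0.14, adjusted p = 2.8e-12, limma on log2 of share + 0.01), so the fold change is understated where shares are low.

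For Myc the 2 fractions were close over all times together. Nuclear Myc was 11.9% and 19.1% new at 15 min and 88.5% and 93.8% at 120 min, and it was above cytosolic Myc in 9 of 16 cultures. The log2 difference was 0.31 (SE 0.18, adjusted p = 0.11, limma). Up to 40 min nuclear Myc led in 8 of 10 cultures, with a median log2 difference of 0.55, and at 60 and 120 min in 1 of 6. Nuclear Mycn led in 10 of 10 cultures up to 40 min (median 0.54) and in 1 of 6 at 60 and 120 min. Nuclear Mycn was 21.3% and 16.8% new at 15 min and 83.2% and 82.4% at 120 min, with a difference of 0.34 (SE 0.13, adjusted p = 0.015, limma). For Mycl the difference was 0.41 (SE 0.19, adjusted p = 0.049, limma). The last 2 had an adjusted p under 0.05 but not a log2 difference over 0.5, and Mycl was called without replicate 3 (0.50).

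The 3 Myc genes were thus not called, whereas the other 7 genes (Max, Mga and the repressors) were called with higher nuclear shares. Log2 differences were 1.80 for Mxd4 (SE 0.42), 1.24 for Mxd3 (SE 0.29), 1.01 for Mxi1 (SE 0.16), 0.98 for Mxd1 (SE 0.21), 0.82 for Mnt (SE 0.16) and 0.79 for Mga (SE 0.14), all with adjusted p of at most 2e-04 by limma. Cytosolic Mxd4 was 0% new in both libraries at 40 min, and cytosolic Mxd3 was 0% and 3.1% new at 15 min. Where a share is 0, its log2 value is set by the constant added to every share. The size of the leads of Mxd4 and Mxd3 is therefore uncertain. The count of 7 of 10 is near the 76.9% of all genes that were called, and the median of the 10 was 0.90 against 0.88 for all genes. Whether the Myc genes differ from the others was not tested.

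**Figure D3:**
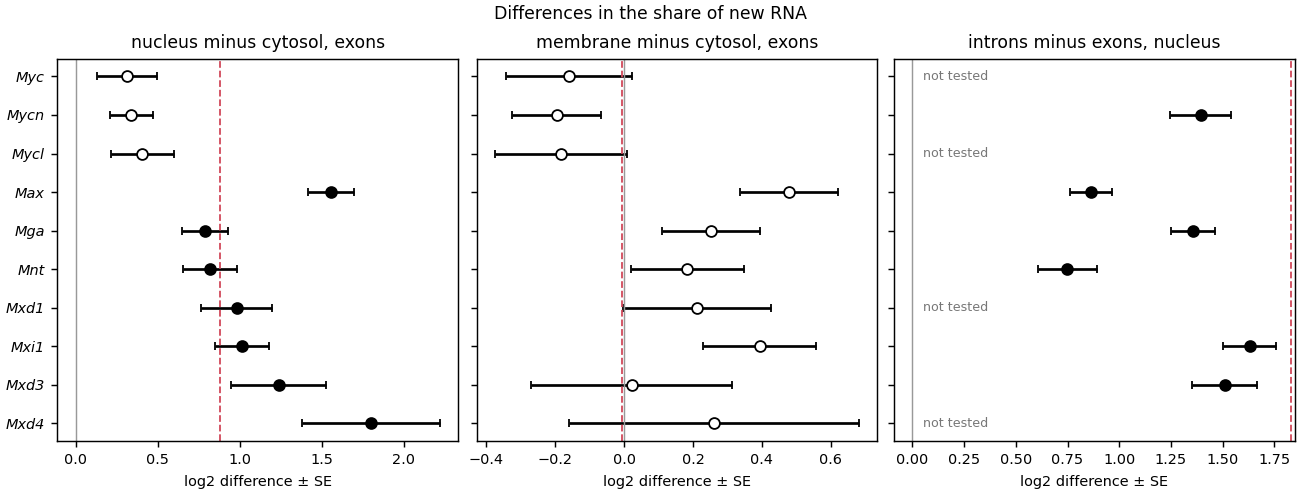
Log2 differences in the share of new RNA with their standard errors for the 10 genes, in 3 panels for nucleus minus cytosol, membrane minus cytosol and nuclear introns minus exons. Filled points were called, open points were not, and the dashed line is the median of all genes. The 3 Myc genes have the smallest nuclear lead (0.31 to 0.41) and Max has no overlap with them at 1.56.

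The nuclear lead depended on the replicate pair and time. Max was ahead in the nucleus in 6 of 6 cultures of replicates 1 and 2, 6 of 6 of replicates 3 and 4 and 4 of 4 of replicates 5 and 6, and so was Mxi1. Mga and Mnt were ahead in 6 of 6, 6 of 6 and 0 of 4, Mxd1 in 6, 6 and 1, Mycn in 6, 5 and 0, Myc in 5, 4 and 0, and Mycl in 5, 4 and 1. Mxd3 was ahead in 5, 4 and 4 and Mxd4 in 4, 6 and 4.

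The difference between pairs was tested by limma. From replicates 1 and 2 (15 to 30 min) to replicates 5 and 6 (60 and 120 min), the nuclear lead of 6 of 10 genes fell, against 35.4% of all genes called, 3950 of these 4123 downward, with the median gene at -0.63. It fell by 1.6 on the log2 scale for Mxd1, 1.47 for Mxi1, 1.37 for Mga, 1.08 for Mnt, 1.00 for Max and 0.82 for Mycn. Myc (-0.74, SE 0.47), Mycl (-0.88, SE 0.44), Mxd3 (-0.81, SE 0.83) and Mxd4 (0.08, SE 1.10) were not called. Time, pair and labeled dose cannot be told apart here. At 60 min alone, replicates 5 and 6 against 3 and 4 gave -0.84 for Max (SE 0.32, adjusted p = 0.066, limma). None of the 10 was called in that contrast and 1 had an unadjusted p under 0.05, while 15.5% of all genes were called, 1799 of these 1801 downward. The median gene was at -0.86, so that Max at -0.84 lay near it. The nuclear lead of Max at 60 min was 1.59 in replicates 3 and 4 and 0.75 in replicates 5 and 6.

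Membrane and cytosol shares were close. At 30 min membrane Max was 8.5% and 8.3% new, against 4.9% and 4.7% in the cytosol, and at 120 min 52.4% and 49.7% against 55.0% and 55.1%. The log2 difference was 0.48 (SE 0.14, adjusted p = 0.015, limma), just under the limit of 0.5. It was called with a pseudocount of 0.005 (0.53) and without replicate 5 (0.54) or 6 (0.57). The other 9 differences ran from -0.20 for Mycn to 0.39 for Mxi1 (SE 0.16). In all, 0 of 10 were called by limma, with 2 at an unadjusted p under 0.05, against 11.5% of all genes.

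Apparent half-lives were fitted as 1 exponential approach of the share to 100% over all 16 libraries of a fraction. In the cytosol they were 43.7 min for Myc, 52.3 for Mycn, 66.8 for Mxd1, 97.5 for Mga, 100.4 for Mnt, 120.4 for Mycl, 145 for Mxi1, 165 for Max, 169.7 for Mxd3 and 346 for Mxd4. In the nucleus they were 40.6 min for Myc, 50.7 for Mxd1, 51.0 for Mycn, 78.4 for Max, 81.6 for Mnt, 86.2 for Mga, 94.4 for Mxd3, 104 for Mxi1, 118 for Mxd4 and 121 for Mycl. Max thus moved from the fourth shortest in the nucleus to the eighth in the cytosol. Each value covers all steps from transcription up to that fraction, so it is not a decay rate of 1 compartment. The SD of fits to the 6 single replicates ran from 22.4 min for Mycn to 542 min for Mxd4 in the cytosol, and it was larger than the half-life itself for Max, Mga, Mxd1, Mxd3 and Mxd4. In the nucleus it ran from 7.03 min for Mycn to 97.8 min for Mxd3.

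The order held for some neighbours and not for others. In the cytosol Myc was shorter than Mycn in 5 of 6 replicates, Mycn shorter than Mxd1 in 5, Mxd1 shorter than Mga in 6 and Mxd3 shorter than Mxd4 in 6, but Mga was shorter than Mnt in only 3. In the nucleus Mycn was shorter than Max in 6 of 6, and Mxd1 shorter than Mycn in 3. Whole-cell half-lives were 45 min for Myc, 66.1 for Mycn and 129 for Max, and without replicate 6 they were 47.0, 65.8 and 139.8 min.

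Half-lives also differed between replicate pairs. Cytosolic Myc fitted alone gave 104 and 56.4 min in replicates 1 and 2, 47.2 and 57.1 min in replicates 3 and 4, and 10.7 and 29.0 min in replicates 5 and 6. Cytosolic Max gave 415 and 432 min, 448 and 431 min, and 110.2 and 113 min. In the cytosol the third pair, which had the longest times, was shortest for both genes. In the nucleus the spread was less, with Myc at 30.2 to 82.3, 32.5 to 50.2 and 32.8 to 40.6 min in the 3 pairs. Nuclear Max gave 95.8 to 110, 72.8 to 114 and 58.7 to 73.8 min. Mycn, with the smallest nuclear SD, gave 44.4 to 54.2, 49.7 to 63.3 and 44.7 to 49.7 min. For Mxd4 at the membrane, 2 replicates reached the bound of 5000 min, where shares were at or near 0.

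**Figure D4:**
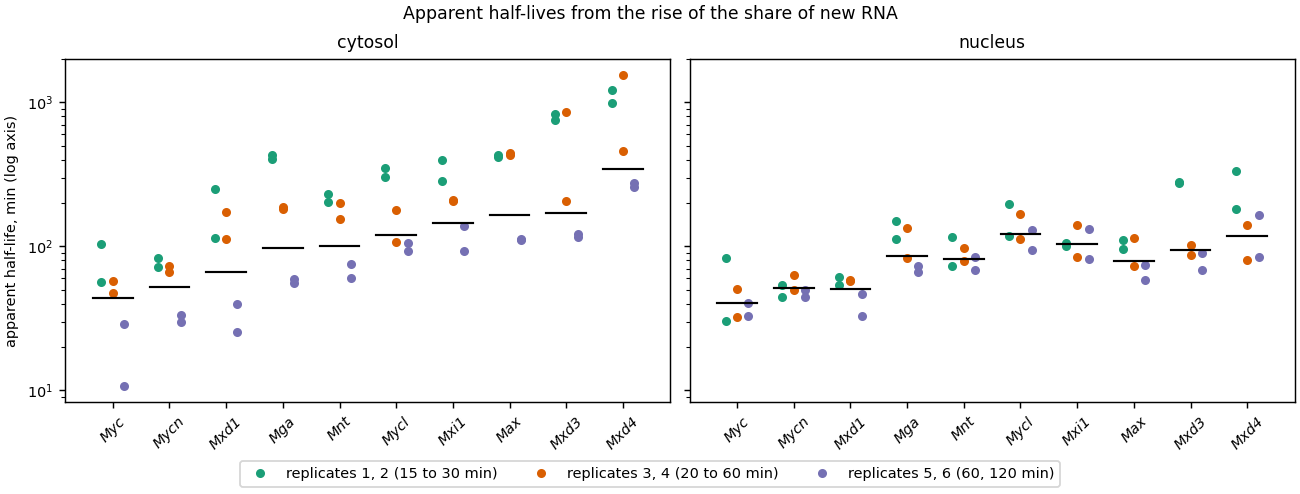
Apparent half-life (min, log axis) of each gene in the cytosol and the nucleus, with 1 point per replicate, colored by pair, and a bar for the fit to all libraries. Myc and Mycn lie lowest in the cytosol (43.7 and 52.3 min) and Mxd4 highest (346 min).

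Introns stand for pre-mRNA and were compared with exons within nuclear libraries. Intron shares of Mycn were 79.9% and 87.9% at 15 min and over 100% from 20 min to 40 min, while exons were at 21.3% and 16.8% at 15 min. Introns of Max, a longer gene (24.9 kb against 5.82 kb), were 9.5% and 7.6% new at 15 min, 30.3% and 38.5% at 30 min and 79.4% and 72.6% at 40 min. Introns of Mga (72.4 kb) were 18.1% and 19.6% new at 15 min and those of Mxi1 (65.3 kb) 19.5% and 32.9%. Those of Mxd3 (4.66 kb) were 10.7% and 15.3% new and those of Mnt (14.8 kb) 10.4% and 24.8%. These shares did not follow the order of gene length, and a relation to length was not tested.

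All 6 genes with at least 400 T positions in introns of every nuclear library had higher shares in introns, as did 96.4% of 10380 genes. Log2 differences were 1.63 for Mxi1 (SE 0.13), 1.51 for Mxd3 (SE 0.16), 1.39 for Mycn (SE 0.15), 1.36 for Mga (SE 0.11), 0.87 for Max (SE 0.10) and 0.75 for Mnt (SE 0.14), all with adjusted p of at most 1.4e-05 by limma. Their median was 1.37 against 1.83 for all genes, and 0 of the 6 lay above the median gene. Myc, Mycl, Mxd1 and Mxd4 had as few as 112, 0, 238 and 245 T positions and were not tested. Intron shares of Myc reached 240.0% on such counts. With a minimum of 100, Myc gave 1.32 (adjusted p = 1.1e-05, limma).

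Exons of a gene did not become new together. Max lies at chr12:76937269-76962201 on the minus strand, and its last exon carried 79.0% of the T positions. The last exon was 5.5% new at 15 min, 19.1% at 30 min and 67.6% at 120 min (means of 2 libraries), against 1.7%, 2.3% and 54.2% for the other 3 measured exons together. It was above them in 16 of 16 nuclear libraries. At 60 min in replicates 5 and 6, the 4 exons at 0, 2.7, 15.9 and 24.7 kb from the gene end were 45.3 ± 4.6%, 39.8 ± 16.1%, 27.4 ± 1.5% and 12.6 ± 3.9% new (mean ± SD of 2).

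Mga lies at chr2:119897228-119969581 on the plus strand. Its last exon was 21.7% new at 30 min against 6.4% for the other 14 measured exons, and 69.3% against 71.5% at 120 min. It was above them in 13 of 16 libraries. The short genes Myc (chr15:61985391-61990374) and Mycn (chr12:12936093-12941914) had 1 other measured exon each, and the last was above it in 13 and 14 of 16 libraries. For Mycn at 20 min the means were 28.5% and 22% in replicates 1 and 2. For Mnt the count was 11 of 16. No test was made over exons, which share their libraries.

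**Figure D5:**
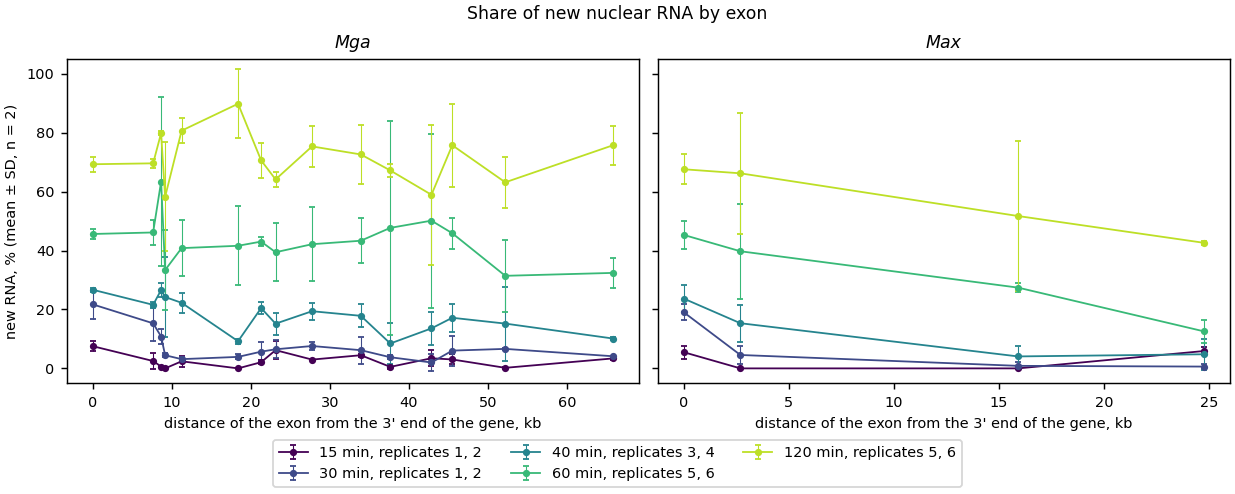
Share of new nuclear RNA (percent, mean ± SD of 2 libraries) in the measured exons of Mga and Max against their distance from the 3′ end of the gene (kb), for 5 labeling conditions. In Max, shares go from 45.3% in the last exon to 12.6% in the exon 24.7 kb away at 60 min in replicates 5 and 6.

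Some of the genes overlap others in the annotation. Mxd3 overlaps Prelid1 on the opposite strand, which had a mean of 4903 reads per library against 203 for Mxd3, and Max overlaps Gm47218 on its own strand (111 against 1644 reads). Libraries were strand-specific, and reads from the same strand could be split.

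Other genes of the pathway were described in 6 lists. Of all genes, 34.2% were called as higher and 31.4% as lower in the nucleus than in the cytosol. In levels between nucleus and cytosol, PRC1.6 partners of Mga and Max had 0 of 10 higher and 8 lower in the nucleus, with a median of -0.82 against -0.02 for all genes. Cbx3, a heterochromatin protein, was at -1.58 and Yaf2 at -1.53. Myc cofactors had 4 higher and 7 lower of 16, with Trrap, a scaffold of acetyltransferase complexes, at 1.38 and Hdac2, a histone deacetylase, at -1.17.

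Myc target genes, many of them for ribosome synthesis and metabolism, had 3 higher and 13 lower of 22, with a median of -0.68. Odc1, which starts polyamine synthesis, was at -1.66 and the nucleolar protein gene Npm1 at -1.52. Proteins that bind Myc mRNA had 1 higher and 5 lower of 10, with Pcbp2 at -1.59 and Igf2bp2 at -1.42. Proteins of Myc turnover had 2 higher and 3 lower of 10, with the deubiquitinase Usp36 at 1.08 and the ubiquitin ligase Huwe1 at 0.81. In the Mlx arm, a parallel network of 3 genes, Mlxipl was higher (1.84) and Mlx lower (-1.06). With library size alone the counts were 0 higher and 3 lower for PRC1.6 partners, 6 and 4 for cofactors, 5 and 9 for targets, 1 and 4 for mRNA-binding proteins, 2 and 0 for turnover and 1 and 1 in the Mlx arm.

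At the membrane 0 genes of the 6 lists were higher than in the cytosol by edgeR, while 24.2% of all genes were called as higher and 12.6% as lower. There were 7 lower among targets (Npm1 at -0.75, Odc1 at -0.66), 5 among PRC1.6 partners (Cbx3 at -0.94, Rnf2 at -0.74), 5 among mRNA-binding proteins (Pcbp2 at -0.78, Igf2bp2 at -0.74), 2 among cofactors (Hdac2 at -0.63, Hdac1 at -0.52), 1 in the Mlx arm (Mlxip at -0.62) and 0 in turnover. With library size alone, where 31.1% of all calls were higher, there were 14, 9, 9, 12, 3 and 4 lower in the same order and still 0 higher.

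New shares were higher in the nucleus than in the cytosol for 3 of 3 genes of the Mlx arm, 9 of 10 PRC1.6 partners, 16 of 16 cofactors, 9 of 10 turnover genes, 10 of 10 mRNA-binding proteins and 20 of 22 targets, and none were lower. These shares stand beside 76.1% of all genes called as higher. List medians ran from 0.93 to 1.29, against 0.88 for all genes. Mlx was at 1.47 and Mlxip at 1.26, Ring1, a ubiquitin ligase of Polycomb complexes, at 1.82 and Wdr5 at 1.76, and the Myc-binding factor Zbtb17 at 1.5 and Cdk9 at 1.42. Usp28 was at 1.53 and Skp2 at 1.48, Tia1 at 1.44 and Igf2bp2 at 1.27, and the targets Pa2g4 at 1.47 and Gnl3 at 1.40. Between membrane and cytosol, 0 genes of these lists were called, against 11.5% of all genes.

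Introns were newer than exons in every tested gene of the lists, with 3, 10, 16, 8, 10 and 21 genes in the same order, as they were in 96.3% of all genes. The largest differences were for Nme2 (3.99) and Ldha (3.55) among targets, Ruvbl1 (3.43) and Sin3b (3.21) among cofactors, Pcbp2 (2.82) and Igf2bp2 (2.80) among mRNA-binding proteins, Cbx3 (2.77) and L3mbtl2 (2.08) among PRC1.6 partners, Huwe1 (2.60) and Gsk3b (1.98) in turnover, and Mlxipl (2.55) and Mlxip (1.68) in the Mlx arm. List medians were 1.61 for turnover, 1.68 for the Mlx arm and 1.73 for PRC1.6 partners, below the 1.83 of all genes, and 2.30 for cofactors, 2.38 for mRNA-binding proteins and 2.58 for targets, above it. The 6 network genes had a median of 1.37.

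Genes with a course most like Myc were found by the distance of log2 shares over 48 fraction libraries. They were Zfp36l2, Id3, Csrnp1, Sgk1 and Klf2, at distances of 2.71 to 3.16, against a median of 16 over 11645 genes. The closest to Max were Rbm39, Suz12, Tra2a, Wsb1 and Ctcf, at 1.79 to 2.03 against a median of 8.01. The points share their libraries and conversion rates.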

How the data were processed

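Poly(A)-selected, strand-specific libraries were aligned and counted by the authors with STAR 2.7.6, HTSeq 0.11.1 and RSEM 1.3.3 on GRCm38, per the methods and the submitters' processing notes. The authors deposited raw counts of reads per gene. Per gene, exon and intron set, further deposited columns hold T and T2C counts. The authors also deposited a conversion rate per library as a fraction, and a ratio (T2C over T over the rate). The deposited ratio was used only to check the share recomputed here, which differed by at most 1.2e-13. Lines that name no feature held 4.32 to 34.8% of reads and were left out. Of 51826 genes, 51633 (99.6%) were matched by identifier to Gencode M21, which gave lengths, exons and UTRs.

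Levels were tested with edgeR 4.0.16 in R 4.3.3 (TMM, filterByExpr, quasi-likelihood test), and shares with limma 3.58.1 on log2(share + 0.01) with labeling condition as covariate, for genes with at least 400 T positions in every library. Fraction was the only factor in the main fit of levels, which therefore did not use the pairing of libraries from 1 culture or replicate. P-values were adjusted over all genes tested (Benjamini-Hochberg), and calls were made where the absolute log2 difference passed 0.5 with adjusted p below 0.05. DESeq2 1.42.0, RLE size factors, library size alone, other filters, pseudocounts, weights, blocks, the set-aside libraries and leaving out each replicate were alternatives, of which library size alone and both contrasts between replicate pairs were chosen after seeing the data. The fits were tested on simulated data. Python 3.11.15 with numpy 2.4.6, pandas 2.3.3 and scipy 1.17.1 was used. Reads carry no molecular identifiers, so intervals of counting error were not used and spread between libraries is given.

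Same-numbered libraries of 1 time came from the same culture, which was split after labeling, so that replicate numbers pair the samples. Over 48 pairs of such libraries, deviations of levels correlated at -0.21 to 0.71 (median 0.33, 36 of 48 above 0.1), and those of shares at -0.01 to 0.11 (median 0.03). Replicates were independently passaged cultures of 1 line.

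The 10 genes and the lists were chosen with earlier results of these data known. Named genes are the 10 members, the 2 called genes of each list with the largest difference in a comparison, and the 5 nearest genes to Myc and to Max.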

Additional observations from a re-analysis of the deposited data

Results flagged for a closer look

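Of 120 groups, of 4 libraries or of 6 replicate half-lives, tested for a value far from the others, 9 had one. A rate of 1 in 20 would give 6, but it assumes that all values of a group vary alike. Each group joined replicate pairs, which differed for some genes, so the number expected by chance is not known. Nuclear Mga at 60 min had a lowest share of 22.5% (replicate 4), with the others at 42.5 to 46.1%, and nuclear Mycl at 60 min a lowest of 16.7% (also replicate 4), with the others at 34.3 to 36.6%. Nuclear Myc at 20 min had a lowest of 23.2%, with the others at 35.8 to 37.6%. Cytosolic Mxi1 at 60 min had a highest share of 32.2%, with the others at 18.8 to 21%, and membrane Mycn at 60 min a highest of 63.2%, with the others at 44.4 to 47.6%. Cytosolic Mxd3 at 20 min reached 12.8% against 0 to 1.64%, cytosolic Mxd4 at 20 min 4.30% against 0 in the others, and whole-cell Mxd4 at 20 min 3.64% against 0. The whole-cell half-life of Mxd3 was 724 min in 1 replicate and 145 to 342 min in the others.

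The nuclear lead in new share differed between replicates 5 and 6 (60 and 120 min) and replicates 1 and 2 (15 to 30 min) for 6 genes, tested as an interaction with limma. The log2 differences were -1.004 for Max (SE 0.20, adjusted p = 0.0005), -1.37 for Mga (SE 0.23), -1.08 for Mnt (SE 0.35), -1.60 for Mxd1 (SE 0.51), -1.47 for Mxi1 (SE 0.34) and -0.82 for Mycn (SE 0.24).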

How the results depend on the processing

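Counts of calls over all genes stayed within 1.5 times in 43 of 49 alternatives that kept all replicates and in 32 of 34 that left out 1. Genes higher or lower in the nucleus numbered 15388 with no filter (10212 with it). Genes that differed at the membrane numbered 10506 with library size alone (5727 otherwise). From 20 to 120 min in replicates 3 and 4, 19 genes were called, 227 with no filter, 111 with DESeq2 and 0 to 0 without replicate 3 or 4 in turn, where the lone sample is assumed to vary like the other groups. From 60 to 120 min, 49 were called with no filter. Under the replicate block, which uses the pairing of samples, the 19 became 31 and no other call of the 10 genes or count moved. The nuclear minus cytosolic level of Myc stayed at 0.27, and its adjusted p went from 0.23 to 0.0051 (edgeR). For Mnt the difference went from 0.28 to 0.45.

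Among the 10 genes, Mxd4 between nucleus and cytosol turned to 0.052 (RLE), 0.054 (DESeq2), 0.20 (library size), 0.23 (no filter), 0.18 (set-aside libraries) and -0.18 to 0.28 with 1 replicate left out. Between membrane and cytosol, Myc turned to -0.020 (RLE), -0.021 (culture block), -0.017 (DESeq2), -0.015 (replicate block), -0.34 (library size) and -0.10 to 0.13 with 1 left out, and with library size Mycl turned to -0.30 and Mxd4 to -0.23. In shares, Mxd3 turned to -0.0031 (pseudocount 0.02), -0.10 (weights) and -0.33 to 0.37 with 1 left out, and Mxd4 to -0.033 to 0.51. Whole-cell values with 1 replicate left out ran, from 20 to 120 min, over -0.29 to 0.37 for Mga, -0.46 to 0.032 for Mxd1, -1.09 to 0.23 for Mxd3, -1.42 to 0.54 for Mxd4 and -0.39 to 0.12 for Mxi1, and from 60 to 120 min over -0.065 to 0.012 for Max, -0.17 to 1.10 for Mxd1, -0.58 to 0.15 for Mxd3, -0.83 to 0.15 for Mxd4 and -0.032 to 0.31 for Myc. None of these was called, and the cause was not tested. Half-lives were 0.68 to 1.03 times the reported values from 60 and 120 min alone, 0.86 to 0.91 times with a delay of 5 min and 0.86 to 1.32 times with 1 replicate left out. The SD over replicates is as large as many of these half-lives, so it is no measure of their stability. Shares of Mxd3 and Mxd4 rest on few conversions, so that values of 0 at 15 and 20 min are limited by depth.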
